A study of Homo sapiens with 24 samples.

Results

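The genes described are the expressed members of the ZNF family, chosen by 2 criteria: a symbol of ZNF followed by digits alone, and a measured level that averaged at least 10 CPM (counts divided by the library total and scaled to the same total in every library) over all 24 libraries. This rule was met by 124 of the 478 ZNF genes in the count table, which lists 59609 genes in all. RNA was measured by 3′ RNA-seq in MDA-MB-231 and MDA-MB-453, established human breast cancer cell lines that lack the oestrogen receptor (ER) and are labelled wild type. Cells were treated for 5 days with DMSO, the CDK4/6 inhibitor abemaciclib at 500 nM, the selective ER degrader fulvestrant at 5 nM or both drugs at these doses. Each line and treatment had 3 libraries, which gives 8 groups, and each line had its own DMSO controls and its own medium. The comparisons asked how the drugs, alone and together, change transcription in ER-negative cells.

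ZNF genes encode proteins that mostly bind DNA through arrays of C2H2 zinc fingers, in each of which a pair of cysteines and a pair of histidines hold a zinc ion. Many of them carry a KRAB box, which binds the corepressor TRIM28 (KAP1). TRIM28 in turn recruits the histone methyltransferase SETDB1, heterochromatin proteins such as CBX5 and the NuRD complex, and much of this system silences retroelements. Other ZNF proteins lack a KRAB box and act as promoter-bound factors, on RNA, on the spindle or on ribosomes. KRAB zinc finger genes lie mostly in clusters, above all on chromosome 19.

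The promoters of 4 members are shown because the results turn on these genes. They are the 3 that passed the test under fulvestrant in MDA-MB-453, and ZNF367, which fell furthest under abemaciclib in that line. Each sequence is the 250 bases before the annotated start (RefSeq, GRCh38.p14), written 5′ to 3′ on the strand of the gene. Capitals mark matches to an E2F site in ZNF367 and to a CCAAT box in ZNF680 and ZNF791.
ZNF680, chr7:64563072-64563321, minus strand: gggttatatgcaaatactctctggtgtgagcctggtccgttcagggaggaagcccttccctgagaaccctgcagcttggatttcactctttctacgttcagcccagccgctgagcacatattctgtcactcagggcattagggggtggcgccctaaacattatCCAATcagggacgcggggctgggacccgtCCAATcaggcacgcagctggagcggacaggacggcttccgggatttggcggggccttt
ZNF791, chr19:12610670-12610919, plus strand: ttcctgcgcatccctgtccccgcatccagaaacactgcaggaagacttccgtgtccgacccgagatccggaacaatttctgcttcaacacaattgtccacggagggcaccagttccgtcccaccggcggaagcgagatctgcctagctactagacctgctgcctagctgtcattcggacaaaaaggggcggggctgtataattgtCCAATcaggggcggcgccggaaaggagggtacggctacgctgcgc
ZNF22, chr10:45000673-45000922, plus strand: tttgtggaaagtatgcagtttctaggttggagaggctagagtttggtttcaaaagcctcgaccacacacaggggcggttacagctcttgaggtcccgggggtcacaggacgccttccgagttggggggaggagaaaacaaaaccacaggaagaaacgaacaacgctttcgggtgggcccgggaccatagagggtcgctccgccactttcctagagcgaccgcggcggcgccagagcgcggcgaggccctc
ZNF367, chr9:96418371-96418620, minus strand: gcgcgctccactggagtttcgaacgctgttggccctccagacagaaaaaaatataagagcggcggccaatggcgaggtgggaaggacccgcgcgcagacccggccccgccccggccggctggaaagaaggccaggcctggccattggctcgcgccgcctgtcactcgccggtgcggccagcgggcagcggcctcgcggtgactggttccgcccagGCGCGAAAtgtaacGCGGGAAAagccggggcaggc

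Of the 124 members, 106 matched a promoter in the RefSeq table, and all 27305 promoters of that table were searched on both strands. The E2F site was searched in the forms TTTCGCGC, TTTGGCGC and TTTCCCGC, at least 1 of which lay in 6 member promoters (5.66%) and in 2.38% of all promoters. The 6 were ZNF367, ZNF444, ZNF260, ZNF644, ZNF131 and ZNF687. Of these, ZNF367 fell and ZNF260 and ZNF444 rose under abemaciclib in MDA-MB-231, and ZNF367 and ZNF444 fell and ZNF644 rose in MDA-MB-453. ZNF367 held 2 of the forms, GCGCGAAA from −35 to −28 and GCGGGAAA from −21 to −14 relative to the start. The oestrogen response element, searched as GGTCANNNTGACC, lay in 0 member promoters and in 0.0439% of all. The CCAAT box, searched as CCAAT, lay in 35.8% of member promoters and in 33.0% of all, and in ZNF680 from −87 to −83 and from −58 to −54 and in ZNF791 from −45 to −41. ZNF367 also held it, as CCAAT from −185 to −181 and on the other strand as ATTGG from −108 to −104, both left in lower case above. A match describes the letters of a window and is not a binding site.

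The libraries held 2873558 to 4158762 counts, at which the member of lowest level, ZNF436, rested on 36.5 counts per library on average. The lines carried the markers of their kind: VIM averaged 1539 CPM and AXL 596 CPM under DMSO in MDA-MB-231 and had 0 counts in MDA-MB-453, where ERBB2 averaged 238 CPM. ESR1, which encodes the target of fulvestrant, had 0 counts in the DMSO libraries of both lines, and the leukocyte, endothelial and fibroblast markers PTPRC, PECAM1, COL1A2 and DCN were at or near 0. COL1A1, a collagen gene also used as a fibroblast marker, had 40.3, 33.9 and 44.0 CPM in the DMSO and 19.0, 20.0 and 16.2 CPM in the abemaciclib libraries of MDA-MB-453, and its part in the results was not tested. The mitochondrial share of counts was 8.69 to 9.08% in the DMSO and 11.1 to 13.2% in the abemaciclib libraries of MDA-MB-231, and 14.8 to 16.0% and 21.8 to 25.5% in those of MDA-MB-453. The A-stretch score is the mean log2 CPM of genes other than the members whose transcripts hold an internal run of at least 12 A, where oligo(dT) can prime, minus that of genes without one. In MDA-MB-453 the DMSO libraries had scores of 0.0979 to 0.116, against 0.265 to 0.376 with abemaciclib, 0.144 to 0.270 with fulvestrant and 0.252 to 0.272 with both drugs. Such a run was present in 34 members (27.4%) and in 14.4% of all genes tested in MDA-MB-453.

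The members spanned levels from the threshold to 187 CPM, with a median of 19.8 CPM. As 3′ reads fall near the end of a transcript whatever its length, CPM values were not divided by length. The highest mean was that of ZNF106, an RNA-binding protein, followed by ZNF428 at 171 CPM and ZNF652, a transcriptional repressor, at 141 CPM. ZNF703, a luminal breast cancer oncogene, averaged 120 CPM, ZNF24, a SCAN-domain protein, 115 CPM and ZNF146, which consists almost entirely of fingers, 81.6 CPM. Just inside the threshold lay ZNF721 at 10.5, ZNF680 at 10.4 and ZNF436 at 10.3 CPM, and just outside it ZNF7, which rounds to 10.0, ZNF74 at 9.89 and ZNF678 at 9.88 CPM. In MDA-MB-231 100 members reached 10 CPM, in MDA-MB-453 113 and in both lines 89. In 35 members the highest of the 8 group means was within 2-fold of the lowest.

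A KRAB box, taken as at least 12 of 19 key positions matched in an annotated protein (GENCODE v44), was found in 41 members and not in the other 83. Of all 475 ZNF genes with an annotated protein, 318 had one. The pattern can miss a divergent box, so members described as without KRAB are those without a match to it. KRAB members had a median mean level of 13.6 CPM against 27.9 CPM for the others, a median of 9 fingers against 6, and transcripts with a median GC content of 44.0% against 52.0%. The most fingers were the 36 of ZNF142, and 6 members had no match to the finger pattern, among them ZNF703, ZNF185, an actin-associated LIM protein, and ZNF720, a KRAB gene now named KRBOX5. The members lay on 20 chromosomes, with 33 on chromosome 19, 17 on chromosome 16 and 13 on chromosome 7. Exons of 27 members overlapped another gene on the same strand and those of 43 a gene on the opposite strand. Which strand was counted is not stated, so reads of such pairs cannot be told apart. In 6 members the last 300 bases shared 50-base stretches with another gene, most in ZNF302 (23.5% of stretches), whose counts are the less certain.

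The untreated lines differed in many ZNF genes, with 55 of the 124 members higher in MDA-MB-453 and 23 lower under DMSO (adjusted p below 0.05, edgeR's quasi-likelihood test with Benjamini-Hochberg adjustment). Over all 12750 genes tested, 34.3% were higher in MDA-MB-453 and 35.6% lower. The median log2 difference was 0.32 over members and −0.03 over all genes. A gene could become a member through the line in which it is high, so these counts describe the members and support no difference. The single genes with the largest differences are given below with the same limit, as descriptions. The lines were grown in different media, and line and medium cannot be told apart.

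ZNF467, a factor of bone and fat cell differentiation, had 62.8, 53.4 and 51.5 CPM in the DMSO libraries of MDA-MB-453 and 0, 0.292 and 0.909 CPM in those of MDA-MB-231. The KRAB gene ZNF747 had 33.9, 19.7 and 28.0 CPM against 0.914, 1.46 and 0.909 CPM, and ZNF785, also a KRAB gene, 27.5, 23.0 and 26.3 CPM against 0.305, 0.584 and 3.03 CPM. These genes were close to absent in MDA-MB-231, with log2 differences of 7.07 (SE 0.37), 4.65 (SE 0.38) and 4.33 (SE 0.39). ZNF703 had 250, 218 and 265 CPM against 28.4, 21.0 and 18.5 CPM and was higher by 3.50 (SE 0.17) on the log2 scale, ZNF652 by 2.81 (SE 0.15) and the KRAB gene ZNF688 by 2.16 (SE 0.39). ZNF217, an oncogene of chromosome 20 amplified in breast cancer, was higher by 1.10 (SE 0.26) and ZNF281, a regulator of pluripotency and mesenchymal genes, by 0.77 (SE 0.14).

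In the other direction, ZNF618 had 44.5, 42.0 and 36.7 CPM under DMSO in MDA-MB-231 and 0 counts in all 12 MDA-MB-453 libraries. With a floor of 3 counts put in place of its 0 over the MDA-MB-453 DMSO group, it would be 146-fold lower there. The exact 95% interval of the counts has its lower bound at 118-fold. ZNF827, which recruits the NuRD complex to telomeres, had 60.4, 68.9 and 72.4 CPM in MDA-MB-231 and 3.80, 5.47 and 8.31 CPM in MDA-MB-453 (log2 difference −3.44, SE 0.26). ZNF185 differed by −3.15 (SE 0.29), ZNF462, a gene of brain development, by −2.58 (SE 0.23), the KRAB gene ZNF544 by −1.98 (SE 0.35) and ZNF592 by −1.64 (SE 0.29). The plot of DMSO levels of one line against the other shows these genes at the edges of a cloud along the diagonal.

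**Figure D1:**
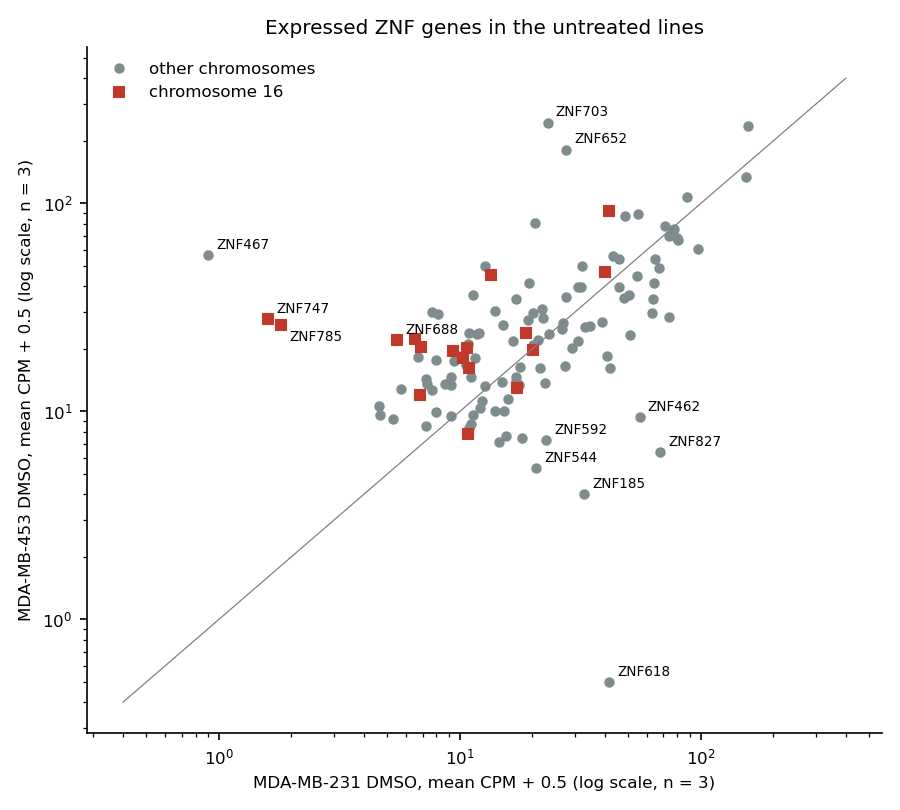
Mean CPM + 0.5 of each of the 124 expressed ZNF genes under DMSO (n = 3 libraries) in MDA-MB-231 (horizontal, log scale) against MDA-MB-453 (vertical, log scale), with chromosome 16 genes as squares, the genes named in the text labelled and the line of equality drawn. ZNF467, ZNF747 and ZNF785 lie far above the line, ZNF618 lies at the bottom with 0 counts in MDA-MB-453, and most chromosome 16 genes lie above the line.

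By position, the counts were as follows, with the same limit that a gene could become a member through the line in which it is high. On chromosome 16, 12 of the 17 members were higher in MDA-MB-453 and 0 lower, with a median log2 difference of 1.01. Of 511 other genes of this chromosome, 239 were higher and 135 lower (median 0.32). A 696 kb stretch of its short arm (chr16:30378106-31074240, GRCh38) held 9 members, ZNF48, ZNF768, ZNF747, ZNF764, ZNF688, ZNF785, ZNF689, ZNF629 and ZNF668, of which 7 were higher and 0 lower (median 1.69). The other 16 genes tested in this stretch gave 13 higher and 1 lower (median 1.18), so its ZNF and other genes lay on the same side. On chromosome 19, 15 of 33 members were higher and 8 lower (median 0.33), beside 316 and 238 of 805 other genes (median 0.22). The chromosomes were not compared by a test.

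Under abemaciclib in MDA-MB-231, 11 of 122 members rose and 12 fell, where 16.9% of all 11314 genes tested rose and 16.9% fell. The median log2 fold change was −0.00 over members and over all genes, and ZNF467 and ZNF747 were too low in this line to be tested. The KRAB gene ZNF264 had 7.62, 5.26 and 1.51 CPM under DMSO and 11.1, 9.12 and 10.1 CPM under abemaciclib (log2 fold change 1.07, SE 0.40, adjusted p = 0.0347). ZNF226, also a KRAB gene, had 7.32, 7.88 and 6.36 CPM against 19.0, 12.8 and 12.6 CPM (log2 fold change 1.04, SE 0.30, adjusted p = 0.00585). In both genes every treated library lay above every control. ZNF358 rose by 0.97 (SE 0.19) on the log2 scale, ZNF444, a SCAN-domain protein, by 0.96 (SE 0.27) and ZNF260 by 0.90 (SE 0.32). Several of these calls were lost when a single library was left out. The call on ZNF264 was lost without any of DMSO replicate 2, DMSO replicate 3, abemaciclib replicate 1 or abemaciclib replicate 3 (adjusted p from 0.0564 to 0.226), that on ZNF226 without abemaciclib replicate 1 (adjusted p = 0.0705), that on ZNF444 without DMSO replicate 2 (adjusted p = 0.0680) and that on ZNF260 without any of DMSO replicate 1, DMSO replicate 3 or abemaciclib replicate 3 (adjusted p from 0.0637 to 0.270). The ZNF264 call was also lost with DESeq2 (adjusted p = 0.0574) and that on ZNF260 with the A-stretch score as covariate (0.0653).

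Among the falls in MDA-MB-231, ZNF236, a protein of 30 fingers, had 16.2, 22.8 and 12.7 CPM under DMSO and 6.25, 7.90 and 10.1 CPM under abemaciclib (log2 fold change −1.09, SE 0.34, adjusted p = 0.0113). ZNF367, whose promoter is shown above, had 31.1, 18.7 and 29.4 CPM against 11.6, 14.3 and 14.5 CPM (log2 fold change −0.96, SE 0.24, adjusted p = 0.00135). No treated library of either gene reached the lowest control. ZNF326, part of a complex that links RNA polymerase II to splicing, fell by 0.69 (SE 0.18) on the log2 scale, ZNF787 by 0.69 (SE 0.15) and ZNF639 by 0.59 (SE 0.19). The call on ZNF236 was lost without DMSO replicate 2 (adjusted p = 0.101) or abemaciclib replicate 1 (adjusted p = 0.0616), and that on ZNF639 without abemaciclib replicate 1 (adjusted p = 0.0851) or abemaciclib replicate 2 (adjusted p = 0.0816). With the mitochondrial share as a covariate 5 members were called in all. How many of all genes were called in such refits is not given here or below, so these recounts do not single out the members. Of the genes named here for this comparison ZNF639 kept its call, the other calls were lost, and ZNF260 turned to −0.20.

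In MDA-MB-453 more members rose than fell under abemaciclib. Of 123 tested, 29 rose and 10 fell, where 16.6% of all 11080 genes tested rose and 19.4% fell, and the median log2 fold change was 0.26 over members and −0.00 over all genes. ZNF618, with 0 counts, was not tested. ZNF292, a large zinc finger protein mutated in intellectual disability, had 25.4, 17.2 and 16.6 CPM under DMSO and 49.6, 54.5 and 60.1 CPM under abemaciclib (log2 fold change 1.56, SE 0.19, adjusted p = 6.03e-09). The KRAB gene ZNF791 had 22.8, 23.5 and 22.2 CPM against 60.0, 60.5 and 52.6 CPM (log2 fold change 1.42, SE 0.17, adjusted p = 2.91e-09). In both genes the lowest treated library lay well above the highest control. The KRAB genes ZNF302 and ZNF264 rose by 1.39 (SE 0.28) and 1.16 (SE 0.27) on the log2 scale and ZNF397, a SCAN-domain protein, by 1.26 (SE 0.22). Among the more abundant members, ZNF652 went from 169, 182 and 191 to 308, 324 and 345 CPM (log2 fold change 0.93, SE 0.09, adjusted p = 3.73e-11), with no overlap. The exons of ZNF292, ZNF397 and ZNF652 overlap genes on the other strand. With each library left out in turn, 26 to 40 members were called, and 1 with the mitochondrial share and 9 with the A-stretch score as covariate. The calls on ZNF292, ZNF791, ZNF302, ZNF264 and ZNF397 were lost with either covariate. The 1 member called with the mitochondrial share was ZNF367, so the call on ZNF652 was lost with that covariate. Its result with the A-stretch score is not given here.

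ZNF367 fell further in MDA-MB-453 than any other member tested. It had 30.4, 24.9 and 22.7 CPM under DMSO and 0.759, 0 and 3.91 CPM under abemaciclib, or 277 counts against 16 over the 3 libraries of each group. This was 17.7-fold lower (95% exact interval 10.7 to 31.4, which covers counting error only), with an adjusted p of 2.09e-10. ZNF207, a BUB3-binding protein of the kinetochore and spindle, went from 71.6, 62.4 and 68.1 to 36.7, 35.0 and 34.6 CPM (log2 fold change −0.84, SE 0.14, adjusted p = 4.06e-06), again with no overlap. ZNF511 fell by 0.86 (SE 0.19) on the log2 scale, ZNF444 by 0.74 (SE 0.17) and ZNF672 by 0.69 (SE 0.20), and with ZNF207 they lost the call with either covariate. The exons of ZNF511 overlap a readthrough transcript on the same strand and TUBGCP2 on the other.

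**Figure D2:**
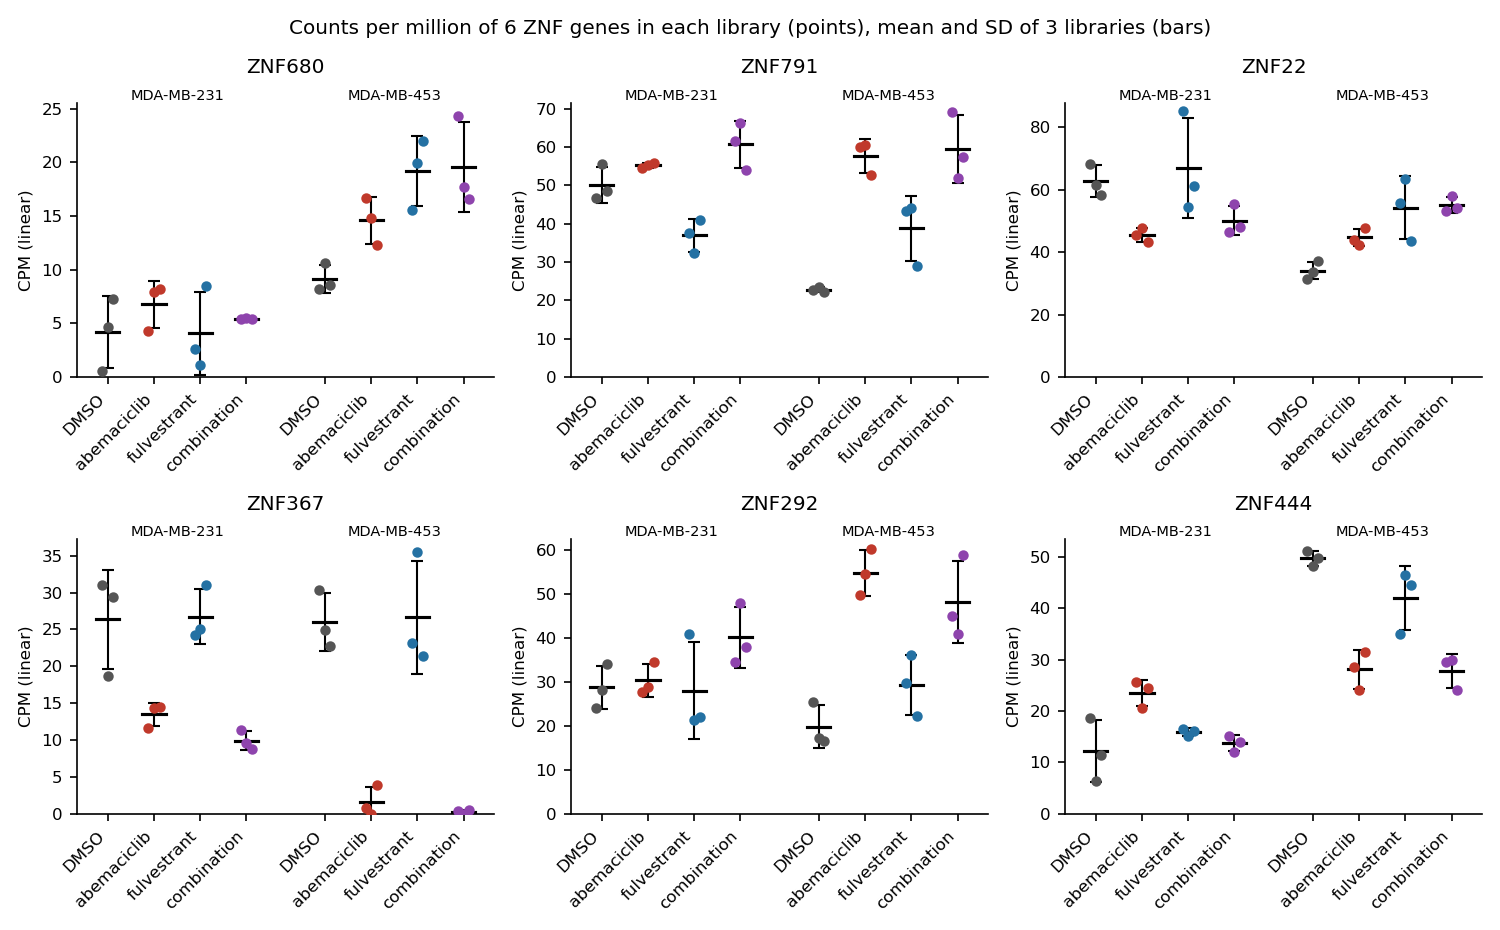
CPM of 6 expressed ZNF genes in each library (points), with the mean and SD of the 3 libraries of a group (bars), by line and treatment on linear axes that differ between panels. ZNF680, ZNF791 and ZNF22 lie higher under fulvestrant than under DMSO in MDA-MB-453, ZNF367 is near 0 under abemaciclib and the combination in that line, and ZNF444 moves in opposite directions in the lines under abemaciclib.

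The abemaciclib comparisons of the lines have no library in common. ZNF264 rose in both, which is 9.09% of the 11 risen in MDA-MB-231 and 3.45% of the 29 risen in MDA-MB-453. ZNF207, ZNF326, ZNF367 and ZNF787 fell in both, 33.3% of the 12 fallen in MDA-MB-231 and 40.0% of the 10 in MDA-MB-453. ZNF444 rose in MDA-MB-231 and fell in MDA-MB-453, while ZNF146 and ZNF22 fell in MDA-MB-231 and rose in MDA-MB-453. These overlaps were not tested. The difference of the effects, MDA-MB-453 minus MDA-MB-231, was above 0 for 15 of the 124 members and below 0 for 7 at an adjusted p below 0.05, against 7.72% and 13.0% of all genes tested. It was 1.48 (SE 0.30) for ZNF292, 1.35 (SE 0.42) for ZNF445, a KRAB protein that maintains genomic imprints, and 1.29 (SE 0.22) for ZNF791. In the other direction it was −3.05 (SE 0.53) for ZNF367, −1.69 (SE 0.31) for ZNF444 and −1.47 (SE 0.45) for ZNF226. The call on ZNF445 was lost without any of MDA-MB-231 DMSO replicate 3, MDA-MB-231 abemaciclib replicate 1, MDA-MB-453 DMSO replicate 1 or MDA-MB-453 abemaciclib replicate 3 (adjusted p from 0.0564 to 0.137). With the A-stretch score as covariate the difference was 0.69 for ZNF292 (adjusted p = 0.176), 1.31 for ZNF445 (0.0946) and −1.05 for ZNF226 (0.262), and with the mitochondrial share 0.94 (0.272), 0.57 (0.770) and −1.54 (0.249), so these calls were lost with either.

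Fulvestrant alone changed 0 of 122 members in MDA-MB-231 by edgeR and by DESeq2, as it did 0.0% of all genes tested by edgeR. An unadjusted p below 0.05 was found for 8 members. The share of all genes at that level is not given here, so this count is not a result about the members. The median log2 fold change was −0.03 over members and 0.00 over all genes. Single members ranged from −0.999 to 0.94, with a median SE of 0.25. In MDA-MB-453, 3 of 123 members rose and 0 fell, beside 1.01% and 0.397% of all genes tested. The median was −0.01 over members and −0.02 over all genes, and 60 of the 123 members had a positive value.

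The 3 members that rose under fulvestrant in MDA-MB-453 were ZNF680, ZNF791 and ZNF22. ZNF680, a KRAB gene (chr7:64519878-64563075, GRCh38), had 8.18, 10.7 and 8.59 CPM under DMSO and 15.6, 20.0 and 22.0 CPM under fulvestrant (log2 fold change 1.00, SE 0.26, adjusted p = 0.0386). ZNF791, a KRAB gene with 17 fingers (chr19:12610918-12633840), had 22.8, 23.5 and 22.2 CPM against 43.3, 44.1 and 28.9 CPM (log2 fold change 0.71, SE 0.17, adjusted p = 0.0286). ZNF22, a short protein of 5 fingers without a KRAB box (chr10:45000923-45005326), had 31.6, 33.7 and 37.1 CPM against 55.7, 63.6 and 43.6 CPM (log2 fold change 0.61, SE 0.16, adjusted p = 0.0350). All treated libraries lay above all controls in these genes, and fulvestrant replicate 3 was the lowest treated library of ZNF791 and ZNF22.

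In MDA-MB-231 the same genes did not pass the test. ZNF680 had 0.610, 4.67 and 7.27 CPM under DMSO and 2.60, 1.14 and 8.48 CPM under fulvestrant (log2 fold change −0.04, SE 0.58), so that a change of the size seen in MDA-MB-453 was not detectable at this spread. ZNF791 had 46.6, 55.5 and 48.5 CPM against 37.5, 32.4 and 40.9 CPM (log2 fold change −0.44, SE 0.15) and ZNF22 68.3, 61.6 and 58.5 CPM against 85.2, 54.6 and 61.1 CPM (log2 fold change 0.10, SE 0.15). The effects of fulvestrant differed between the lines for 1 member, ZNF791 (log2 difference 1.13, SE 0.23, adjusted p = 0.0117), where 1.06% of all genes tested differed. This call was lost without any of MDA-MB-231 fulvestrant replicate 2, MDA-MB-453 fulvestrant replicate 1 or MDA-MB-453 fulvestrant replicate 2 (adjusted p from 0.0687 to 0.0833), and with the A-stretch score as covariate, at 0.83 (adjusted p = 0.747).

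The calls on ZNF680, ZNF791 and ZNF22 lay near the threshold, and 0 members were called without any 1 of the 3 DMSO libraries, fulvestrant replicate 1 or fulvestrant replicate 2 of MDA-MB-453. That on ZNF680 was lost without any of DMSO replicate 1, DMSO replicate 2, DMSO replicate 3, fulvestrant replicate 1, fulvestrant replicate 2 or combination replicate 2 (adjusted p from 0.0527 to 0.246), that on ZNF791 without any of DMSO replicate 1, DMSO replicate 2, DMSO replicate 3, fulvestrant replicate 1 or fulvestrant replicate 2 (adjusted p from 0.0861 to 0.288) and that on ZNF22 without any of DMSO replicate 1, DMSO replicate 2, DMSO replicate 3, fulvestrant replicate 1 or fulvestrant replicate 2 (adjusted p from 0.0870 to 0.358). Without fulvestrant replicate 3, 10 members were called. The calls over all genes without that library are not given here, so this count is not a result about the members. The A-stretch score was higher in every fulvestrant library of MDA-MB-453 than in every DMSO library. With it as a covariate 0 members were called, at 1.20 for ZNF680, 0.40 for ZNF791 and 0.35 for ZNF22. Of the 3 genes ZNF791 has an internal A run. With a correction for GC content and transcript length 0 were called. DESeq2 gave no adjusted p for ZNF680, ZNF791 and ZNF22, so their calls could not be checked with it. It called 1 member, ZNF106, which had 250, 226 and 230 CPM under DMSO and 313, 355 and 248 CPM under fulvestrant.

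**Figure D3:**
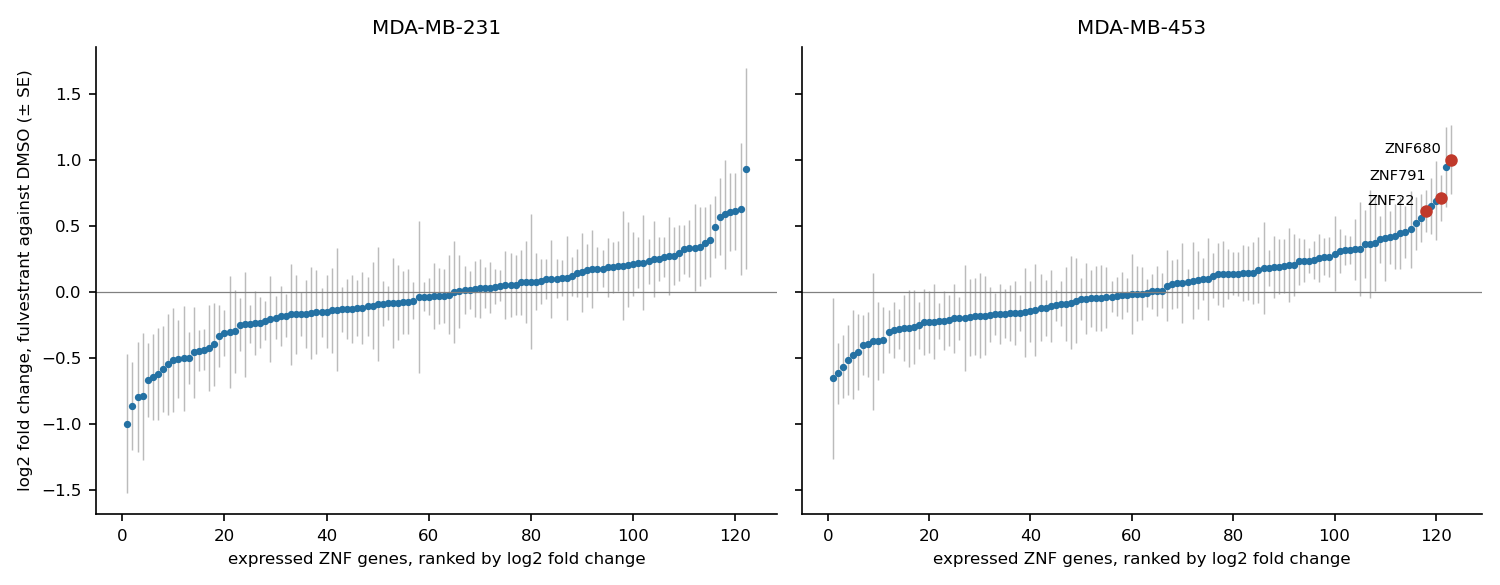
Log2 fold changes under fulvestrant against DMSO of the expressed ZNF genes in MDA-MB-231 (122 genes) and MDA-MB-453 (123 genes), ranked from lowest to highest, with the standard error of each as a grey bar and genes called at an adjusted p below 0.05 in red. Both lines show a curve centred on 0, and ZNF680, ZNF791 and ZNF22 stand at the upper end in MDA-MB-453.

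As shares of the library totals, the members were slightly higher under fulvestrant in MDA-MB-453. Their counts summed to 3974 to 4084 CPM under DMSO and 4278 to 4509 CPM under fulvestrant, and their mean log2(CPM + 0.5) was 4.47 to 4.49 and 4.54 to 4.61, with no overlap in either measure. The other 8306 genes of 10 CPM or more moved alike, with means of 5.22 to 5.27 and 5.29 to 5.31. With library totals in place of scaling factors, an alternative chosen after seeing the data, the median log2 fold change was 0.05 over members and 0.04 over all genes. In MDA-MB-231 the members summed to 3322 to 3506 CPM under DMSO and 3164 to 3620 CPM under fulvestrant, which overlap.

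**Figure D4:**
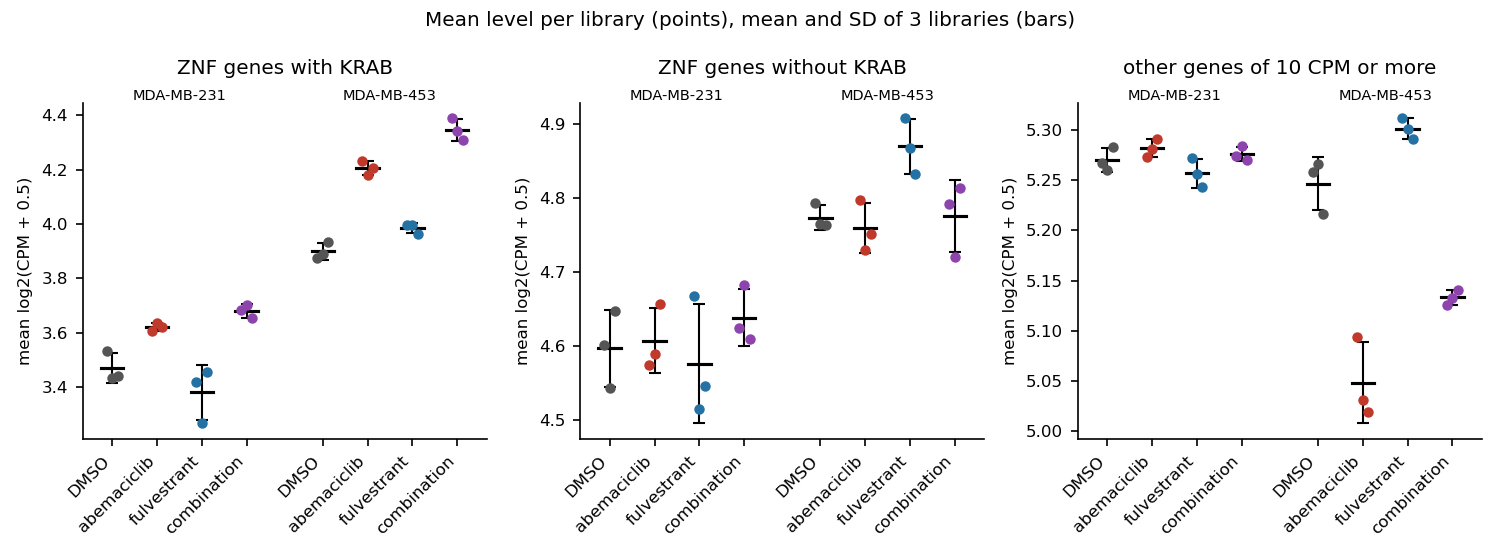
Mean log2(CPM + 0.5) in each library (points), with the mean and SD of the 3 libraries of a group (bars), for the expressed ZNF genes with KRAB (41) and without (83) and for 8306 other genes of 10 CPM or more, on axes that differ between panels. In MDA-MB-453 the fulvestrant libraries lie above the DMSO libraries in all 3 panels, and the abemaciclib and combination libraries lie above DMSO in KRAB genes and below it in the other genes.

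The combination was compared with the same DMSO libraries. In MDA-MB-231, 13 members rose and 10 fell, against 17.0% and 18.3% of all genes tested, with medians of 0.05 over members and −0.01 over all genes. ZNF276 had 9.14, 7.30 and 14.5 CPM under DMSO and 24.2, 25.2 and 22.2 CPM under the combination (log2 fold change 1.21, SE 0.28, adjusted p = 7.12e-04), with no overlap. Its exons overlap FANCA, a DNA repair gene on the other strand. ZNF226 rose by 1.17 (SE 0.30) on the log2 scale, the KRAB genes ZNF720 and ZNF268 by 1.09 (SE 0.36) and 0.94 (SE 0.30), and ZNF358 by 0.89 (SE 0.19). ZNF367 fell by 1.42 (SE 0.24), to 11.3, 9.62 and 8.76 CPM, ZNF787 by 0.78 (SE 0.15), ZNF768 by 0.67 (SE 0.20), the KRAB gene ZNF689 by 0.64 (SE 0.25) and ZNF511 by 0.59 (SE 0.17).

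Of these, the call on ZNF689 (adjusted p = 0.0435) was lost without any of DMSO replicate 1, DMSO replicate 2, DMSO replicate 3, fulvestrant replicate 3, combination replicate 1 or combination replicate 3 (adjusted p from 0.0506 to 0.149), and under each other alternative run for it except library totals (adjusted p from 0.0507 to 0.359, DESeq2 among them at 0.0876). That on ZNF720 was lost without any of DMSO replicate 2, combination replicate 2 or combination replicate 3 (adjusted p from 0.0559 to 0.0936), that on ZNF268 without DMSO replicate 2 (adjusted p = 0.0793), that on ZNF768 without DMSO replicate 3 (adjusted p = 0.0923) and that on ZNF511 without DMSO replicate 1 (adjusted p = 0.116). With the mitochondrial share as a covariate the calls on all the genes named for this comparison were lost, and with the A-stretch score those on ZNF720, ZNF268, ZNF768 and ZNF689. Between the combination and abemaciclib alone 0 of 122 members differed by edgeR and by DESeq2, beside 0.0265% of all genes by edgeR, with 6 at an unadjusted p below 0.05. The interaction, in which both single-drug effects are subtracted from that of the combination, likewise gave 0 members by both tools beside 0.124% of all genes by edgeR. It had 11 members at an unadjusted p below 0.05. Without fulvestrant replicate 1 it gave 4 called members, and without abemaciclib replicate 3 it gave 1. The counts at an unadjusted p or with a library left out lack the share over all genes and are not results about the members.

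In MDA-MB-453 27 members rose and 9 fell under the combination, against 17.6% and 20.0% of all genes tested, with medians of 0.09 over members and 0.00 over all genes. ZNF276 had 7.31, 9.03 and 5.54 CPM under DMSO and 12.2, 22.3 and 22.5 CPM under the combination (log2 fold change 1.38, SE 0.32, adjusted p = 5.02e-04), with no overlap. ZNF791 rose by 1.37 (SE 0.17) on the log2 scale, ZNF302 by 1.30 (SE 0.28), ZNF292 by 1.29 (SE 0.19) and ZNF397 by 1.28 (SE 0.22). ZNF367 was at 0.348, 0 and 0.511 CPM, or 3 counts against 277 under DMSO, which is 88.5-fold lower (95% exact interval 30.0 to 432, adjusted p = 1.46e-12). ZNF511 fell by 0.86 (SE 0.19) on the log2 scale, ZNF444 by 0.85 (SE 0.17), ZNF787 by 0.68 (SE 0.15) and ZNF335, a gene of neural progenitor division, by 0.675 (SE 0.22). The ZNF335 call was lost without DMSO replicate 1 (adjusted p = 0.0583) or combination replicate 3 (adjusted p = 0.0598). With the mitochondrial share as a covariate the calls on all the genes named for this comparison except ZNF367 were lost. With the A-stretch score those on ZNF292, ZNF397, ZNF511, ZNF444, ZNF787 and ZNF335 were lost. In all, 5 members were called with the mitochondrial share and 17 with the A-stretch score as covariate, and in MDA-MB-231 1 and 17.

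Combination and abemaciclib differed in 2 members in MDA-MB-453, beside 2.46% of all genes tested. ZNF207 had 36.7, 35.0 and 34.6 CPM under abemaciclib and 51.9, 60.2 and 58.5 CPM under the combination (log2 fold change 0.60, SE 0.14, adjusted p = 0.0127). ZNF652 had 308, 324 and 345 CPM against 259, 259 and 283 CPM (log2 fold change −0.37, SE 0.09, adjusted p = 0.0171). The groups did not overlap in either gene, and both have an internal A run. The call on ZNF207 was lost without any of abemaciclib replicate 2, combination replicate 2 or combination replicate 3 (adjusted p from 0.0556 to 0.102), and that on ZNF652 without any of abemaciclib replicate 2, abemaciclib replicate 3, combination replicate 1 or combination replicate 2 (adjusted p from 0.0719 to 0.130). Both were also lost with the A-stretch score as covariate (adjusted p = 0.0882 and 0.178) and with the mitochondrial share (0.270 and 0.763), and that on ZNF652 with library totals (0.0919). Without abemaciclib replicate 1, 5 members were called. The share over all genes without that library is not given here, so this count is not a result about the members.

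The interaction in MDA-MB-453 was above 0 for 1 member and below 0 for 3, against 1.13% and 2.67% of all genes tested. It was 0.76 (SE 0.20) for ZNF207, −0.75 (SE 0.22) for ZNF609, −0.61 (SE 0.13) for ZNF652 and −0.50 (SE 0.15) for ZNF106. When the A-stretch score was held as a covariate 0 were called, and the values of ZNF609 and ZNF106 turned to 0.36 and 0.18. The call on ZNF652 held with each library left out, but was lost with the correction for GC content and length (−0.37, adjusted p = 0.0823), with the mitochondrial share (0.0539) and with the A-stretch score (0.934). The mitochondrial share as covariate also lost the other interaction calls. The ZNF207 call was lost without any of DMSO replicate 1, DMSO replicate 3, fulvestrant replicate 1, fulvestrant replicate 2 or combination replicate 2 (adjusted p from 0.0565 to 0.0668). The call on ZNF609 was lost without any of DMSO replicate 1, DMSO replicate 2, abemaciclib replicate 2, abemaciclib replicate 3, fulvestrant replicate 1, fulvestrant replicate 2, combination replicate 1, combination replicate 2 or combination replicate 3 (adjusted p from 0.0567 to 0.173). The call on ZNF106 (adjusted p = 0.0483) was lost without any of DMSO replicate 1, DMSO replicate 2, DMSO replicate 3, abemaciclib replicate 2, abemaciclib replicate 3, fulvestrant replicate 1, fulvestrant replicate 2, combination replicate 1, combination replicate 2 or combination replicate 3 (adjusted p from 0.0519 to 0.231). Without fulvestrant replicate 3, 10 members were called, again without the share over all genes, so this count is not a result about the members.

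The members with and without KRAB were described apart. In MDA-MB-453, 12 of 41 KRAB members rose and 0 fell (median 0.35), and 17 of 82 without KRAB rose and 10 fell (median 0.14), beside the 16.6% and 19.4% of all genes given above. Under the combination 13 of the KRAB members rose and 0 fell (median 0.37), and 14 of the others rose and 9 fell (median −0.01). The KRAB genes that rose under abemaciclib were ZNF791, ZNF302, ZNF264, ZNF436, ZNF445, ZNF317, ZNF92, ZNF680, ZNF195, ZNF785, ZNF3 and ZNF557, from 1.42 to 0.54 on the log2 scale. ZNF436 went from 7.60, 9.30 and 13.6 to 23.3, 18.1 and 18.3 CPM and ZNF445 from 4.38, 9.30 and 7.20 to 10.9, 10.4 and 19.5 CPM, both without overlap. In MDA-MB-231 2 of 40 KRAB members rose and 0 fell under abemaciclib (median 0.13), and 5 and 2 did so under the combination (median 0.19). The KRAB median under fulvestrant was −0.09 for MDA-MB-231 and −0.05 for MDA-MB-453. The difference between the classes was not tested.

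As unscaled values, the mean log2(CPM + 0.5) of KRAB members in MDA-MB-453 was 3.88 to 3.94 in the DMSO libraries, 4.18 to 4.23 under abemaciclib and 4.31 to 4.39 under the combination, without overlap. Members without KRAB lay at 4.76 to 4.79, 4.73 to 4.80 and 4.72 to 4.81, which overlap. Of the KRAB members, the 14 with an internal A run gave 4 risen under abemaciclib (median 0.35) and the 27 without one 8 (median 0.37). When the A-stretch score was held as a covariate, 0 KRAB members rose under abemaciclib (median 0.20) and 5 under the combination (median 0.34), with medians of 0.01 and 0.01 over members without KRAB. With the mitochondrial share as a covariate the counts were 0 and 0 (medians 0.13 and 0.38), and the medians without KRAB were 0.15 and 0.04, so the order of the classes turned under abemaciclib. With the correction for GC content and length, 9 KRAB members rose under abemaciclib and 11 under the combination (medians 0.26 and 0.29, against 0.18 and 0.01 without KRAB). Mitochondrial share and A-stretch score were higher in every abemaciclib and combination library of MDA-MB-453 than in every DMSO library, so drug and measure cannot be told apart in such fits. With each library left out in turn, 8 to 12 KRAB members rose under abemaciclib and 11 to 13 under the combination.

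**Figure D5:**
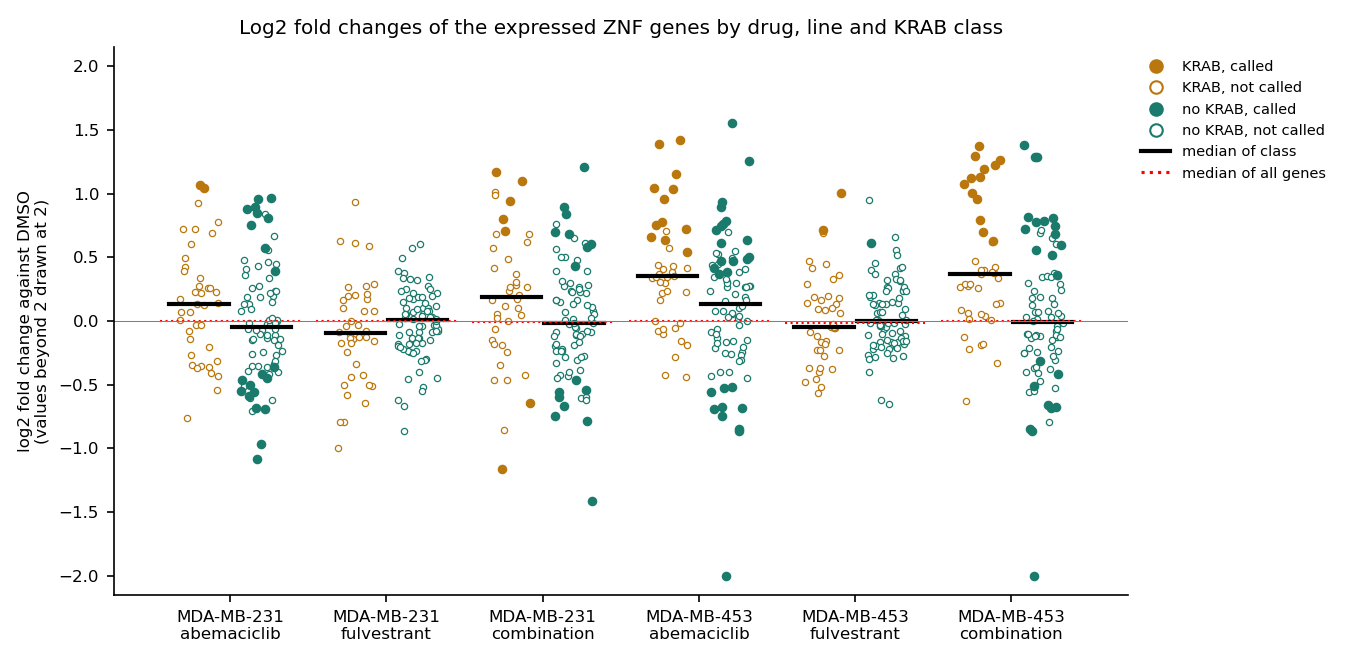
Log2 fold changes against DMSO of the expressed ZNF genes with and without KRAB, by line and treatment, with filled points for genes called at an adjusted p below 0.05, black bars for the class median and dotted lines for the median of all genes tested; ZNF367 in MDA-MB-453 lies beyond −2 and is drawn at −2. Under abemaciclib and the combination in MDA-MB-453 the KRAB genes have medians of 0.35 and 0.37 and no called gene below 0, and under fulvestrant the medians of both classes lie close to 0.

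The corepressor machinery of KRAB proteins is described by a list of 21 genes, which was not tested as a set. Under abemaciclib 1 rose and 7 fell in MDA-MB-231 (median −0.10), where 16.9% and 16.9% of all genes did, and 2 rose and 8 fell in MDA-MB-453 (median −0.20), where 16.6% and 19.4% did. Under the combination 2 rose and 7 fell in MDA-MB-231, beside 17.0% and 18.3% of all genes, and 1 and 9 in MDA-MB-453, beside 17.6% and 20.0%. TRIM28 had 271, 271 and 316 CPM under DMSO and 140, 169 and 138 CPM with abemaciclib in the MDA-MB-231 libraries (log2 fold change −0.94, SE 0.10, adjusted p = 1.34e-09). In MDA-MB-453 it had 167, 176 and 178 CPM against 128, 111 and 113 CPM (log2 fold change −0.48, SE 0.11, adjusted p = 3.43e-04). The groups did not overlap in either line. DNMT1, which copies DNA methylation at replication, fell by 0.95 and 1.06 on the log2 scale in MDA-MB-231 and MDA-MB-453, and the heterochromatin proteins CBX3 and CBX5 by 0.67 and 0.41 and by 0.46 and 0.54. ATRX, a chromatin remodeller of heterochromatin, rose by 0.59 (SE 0.13) and 1.58 (SE 0.13). Under fulvestrant 0 rose and 0 fell in MDA-MB-231, while CBX3 and ATRX rose by 0.37 (SE 0.09) and 0.63 (SE 0.13) on the log2 scale in MDA-MB-453. Of all genes tested in MDA-MB-453, 1.01% rose and 0.397% fell under fulvestrant. The 21 genes were not recomputed under the alternatives or with a library left out, so how far their calls hold there is not known. In bulk libraries fewer cells of a kind and less RNA per cell cannot be told apart.

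Members with known roles outside KRAB repression are given by role, as single genes. Of those at the ribosome, ZNF598, which ubiquitylates collided ribosomes, and ZNF622 and ZNF593, which act in maturation of the large subunit, ZNF593 fell by 0.52 on the log2 scale under abemaciclib in MDA-MB-453 and no other drug comparison with DMSO passed. Of the RNA and spindle proteins ZNF207, ZNF326, ZNF346 and ZNF638, ZNF207 and ZNF326 fell under abemaciclib in MDA-MB-231 (by 0.55 and 0.69). In MDA-MB-453 ZNF207, ZNF326 and ZNF346, a double-stranded RNA-binding protein, fell by 0.84, 0.52 and 0.68. With the mitochondrial share as a covariate the calls on ZNF593, ZNF207, ZNF326 and ZNF346 under abemaciclib in MDA-MB-453 were lost. ZNF638, which silences unintegrated retroviral DNA, had log2 fold changes of −0.15 and 0.27 in the lines and did not pass. Of the tumour and identity factors ZNF217, ZNF703, ZNF281 and ZNF148, ZNF281 fell by 0.42 under abemaciclib in MDA-MB-231 and ZNF703 by 0.42 in MDA-MB-453 under both drugs. The promoter-bound factors ZNF76 and ZNF263 had log2 fold changes of 0.00 and −0.08 under abemaciclib in MDA-MB-231 and of −0.26 and 0.35 in the other line, and none passed. The retroelement-binding KRAB genes ZNF91, ZNF93, ZNF141, ZNF382, ZNF649 and ZNF765 had mean levels of 1.84 to 7.33 CPM and are not members.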

How the data were processed

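RNA from both lines was made into QuantSeq 3′ FWD libraries. The deposited values are raw counts per gene, for which the authors used BBDuk for trimming, STAR for alignment to hg38 and featureCounts on a GENCODE annotation for counting. The counting strand, the handling of multiply mapped reads and any use of molecular identifiers are not given in the sources used here, and amplified reads are not independent molecules, so intervals cover counting error only. The authors describe DESeq2 for their own tests.

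Counts were tested per line over its 12 libraries with edgeR 4.0.16 in R 4.3.3 (filterByExpr, TMM scaling, quasi-likelihood test, Benjamini-Hochberg adjustment over all genes tested), and between lines over all 24. Genes were called at an adjusted p below 0.05. The members, gene lists and promoters were chosen with earlier results of these data known. The genes named were up to 5 called members of largest log2 fold change in each direction whose groups did not overlap (6 between the lines, 3 for interactions and differences of effects), the highest and threshold members by level, and genes of lists of known function; ZNF142, ZNF316 and the KRAB genes listed as risen were chosen after their values were seen. Replicates are numbered in the labels and described by the study as separate cultures; p-values measure the spread between them. Alternatives were DESeq2 1.42.0, other scaling factors, filters and thresholds, a replicate block, covariates, a correction for GC content and length, only the groups compared, and each library left out. KRAB boxes, fingers, overlaps and A runs came from GENCODE v44 on GRCh38, and promoters from RefSeq. The tests were checked on simulated data.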

Additional observations from a re-analysis of the deposited data

Results flagged for a closer look

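The effects of a drug differed between the lines, by the test of the difference itself in one model of all libraries, for 7 gene and drug pairs that had been named by the size of the difference. Under fulvestrant it was 1.13 on the log2 scale for ZNF791, MDA-MB-453 minus MDA-MB-231. Under abemaciclib it was 1.48 for ZNF292, 1.35 for ZNF445 and 1.29 for ZNF791, whose effects were 1.56, 1.03 and 1.42 in MDA-MB-453 and 0.08, −0.31 and 0.14 in MDA-MB-231. It was −3.05 for ZNF367, −1.69 for ZNF444 and −1.47 for ZNF226, whose effects were −4.02, −0.74 and −0.44 in MDA-MB-453 and −0.96, 0.96 and 1.04 in MDA-MB-231. With the A-stretch score or the mitochondrial share as a covariate the abemaciclib differences of ZNF292, ZNF445 and ZNF226 did not pass, at 0.69, 1.31 and −1.05 and at 0.94, 0.57 and −1.54, nor did the fulvestrant difference of ZNF791 with the A-stretch score (0.83). With 3 libraries per group, no library was tested for standing apart from its group.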

How the results depend on the processing

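The counts of members called and the medians gave 19 results, which were recomputed under the alternatives and with each library left out. Of 492 values, 398 stayed the same. For a count this meant equal to the main count or within 1.5 times of it. For a median it meant a move smaller than the pooled SD, between libraries of a group, of the members' mean log2 level. The direction of a median was not part of this rule. Counts over all genes under each alternative are not given here, so the recounts do not single out the members. The 68 single-gene calls gave 677 values under other alternatives, of which 95 lost the call with the direction kept. Of these 95, 45 were with the mitochondrial share and 31 with the A-stretch score as covariate. Another 4 values turned direction and did not pass either. With a library left out, 81 of 1044 values lost the call. The causes were not tested.

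With the mitochondrial share as a covariate, the members called were 5 for abemaciclib and 1 for the combination in MDA-MB-231, and 1, 9 and 5 for abemaciclib, fulvestrant and the combination in MDA-MB-453. There 0 differed between combination and abemaciclib and 0 in the interaction, 34 differed between the DMSO lines, and 3 and 4 in the fulvestrant and abemaciclib effects between lines. The medians were −0.088 and −0.067 for abemaciclib and the combination in MDA-MB-231 and 0.13 for abemaciclib in MDA-MB-453. ZNF260 under abemaciclib and ZNF768 under the combination in MDA-MB-231 turned to −0.20 and 0.83. With the A-stretch score the counts in MDA-MB-453 were 9, 0 and 17 (medians 0.10, 0.013 and 0.13), 0 between combination and abemaciclib and 0 in the interaction, where ZNF609 and ZNF106 turned to 0.36 and 0.18, and 0 and 6 in the fulvestrant and abemaciclib effects between lines.

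Correcting for GC content and length gave 0 members under fulvestrant and 1 in the interaction in MDA-MB-453, with medians of 0.19, 0.039 and 0.13 for abemaciclib, fulvestrant and the combination. DESeq2 called 1 under fulvestrant there and gave no adjusted p for ZNF680, ZNF791 and ZNF22. A threshold of 20 CPM gave 15, 15, 19 and 39 called for abemaciclib and the combination in MDA-MB-231, the combination in MDA-MB-453 and the DMSO lines, with medians of −0.050 and −0.0035 in MDA-MB-231 and 0.21 and 0.034 for abemaciclib and the combination in MDA-MB-453. A threshold of 5 CPM gave 118 between the lines and a combination median of 0.25 in MDA-MB-453. Upper-quartile factors gave medians of 0.076 and 0.13 in MDA-MB-231 and 0.12 for the combination in MDA-MB-453, and library totals, chosen after seeing the data, 0.18 and 0.047 for abemaciclib and fulvestrant and 1 member between combination and abemaciclib in MDA-MB-453. Without a filter on low counts the interaction gave 1 and 8 members in MDA-MB-231 and MDA-MB-453, and the fulvestrant effects differed between lines in 2.

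With each library left out in turn, MDA-MB-231 gave 0 to 1 members called under fulvestrant and 0 to 4 in the interaction, and a combination median of 0.010 to 0.099. MDA-MB-453 gave medians of 0.20 to 0.26, −0.024 to 0.036 and 0.067 to 0.14 for abemaciclib, fulvestrant and the combination, 0 to 10 called under fulvestrant, 0 to 5 between combination and abemaciclib and 1 to 10 in the interaction, and the fulvestrant effects differed between lines in 0 to 4.

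Libraries of the same replicate number did not deviate together (18 correlations per line, from −0.0923 to 0.0446 for MDA-MB-231 and from −0.0647 to 0.0435 for MDA-MB-453), so the numbers were not taken as pairs. With a replicate block, 39, 2 and 37 members were called under abemaciclib, fulvestrant and the combination in MDA-MB-453, 23, 0 and 22 in MDA-MB-231, and the block lost the calls on ZNF689 for the combination in MDA-MB-231 (adjusted p = 0.0555), and on ZNF680 under fulvestrant (0.0542) and ZNF106 in the interaction (0.0746) in MDA-MB-453. At these depths members near 10 CPM rest on about 36.5 counts per library. A call took a change well above its SE, so changes near or moderately above the SE could be missed.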

Other observations

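Of all 478 ZNF genes, 42 had 0 counts in all 24 libraries. Within the members, the highest KRAB genes were ZNF791 at 47.7 CPM and ZNF316 at 40.3 CPM, against 187 CPM for ZNF106 without KRAB.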
